A study of Homo sapiens with 6 samples.

Results

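The outermost 2 Mb of the autosomes were examined for chromatin accessibility in ventricular-like cardiomyocytes at day 15 of differentiation from H9, an established human embryonic stem cell line. The assay was ATAC-seq, which uses a transposase, Tn5, to cut open DNA and tag the fragments. Cultures with knockdown of ZNF436 (3 libraries) were compared with control cultures (3 libraries), all made with the same ventricular differentiation kit and, per the labels' protocols, as independent differentiations. How the knockdown was made is not given in the sources used here. By its title, the series places the comparison in the control of regulatory elements derived from transposons. Each library has a deposited list of peaks placed on hg19. Merging every overlap of 1 bp or more among the 6 lists gave 157560 regions, and a library was said to call a region in which it had a peak. Of these, 10129 regions (6.43%) had their midpoint within 2 Mb of a chromosome end. They lay at 17 p ends (4268 regions, counted from the first base, without the short arms of chromosomes 13, 14, 15, 21 and 22) and 22 q ends (5861 regions, counted back from the largest peak end on that chromosome in any library). The choice used positions and neither scores nor groups. The limit of 2 Mb is a convention, with 47 regions in the last 10 kb inside it and 46 in the first 10 kb outside it.

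Human chromosomes end in arrays of a short telomeric repeat, bordered on the inside by subtelomeric DNA. This DNA holds blocks of sequence copied between ends and segmental duplications, followed inward by stretches that are often rich in genes and in G and C bases. Telomeres and subtelomeric repeats are known as sites of repressive chromatin, which can silence nearby genes. The array of D4Z4 repeats near the end of 4q, with a close relative on 10q, holds copies of DUX4, a transcription factor of the early embryo that is silenced in most adult tissues. ZNF436 is a KRAB zinc finger protein. Proteins of this family bind DNA, many of them in transposons, and commonly recruit the corepressor TRIM28 and with it repressive histone marks.

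The lists held 115864, 102454 and 87871 peaks in knockdown and 50719, 53662 and 68342 in control. No read counts or depths are given, so the depth is unknown, and a longer list could not be told apart from a deeper or cleaner library. Values at the ends are therefore given as shares of each list and beside the rest of the genome, and values for lists cut to equal length by score stand beside several of them. No gene annotation or sequence of hg19 was used here, so regions are named by position, and neither the cardiomyocyte markers nor the ZNF436 locus were checked. How reads that map to several places were treated is not given in the sources used here, and its part in the values of duplicated subtelomeric sequence was not tested.

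Chromosome ends took a smaller share of the accessible sites in knockdown cells than in control cells. The end share was 5.35, 5.78 and 5.55% of the peaks in the knockdown libraries, against 6.81, 7.39 and 7.41% in the control libraries. The 3 knockdown values lay below the 3 control values without overlap. The means were 5.56 ± 0.215% in knockdown and 7.20 ± 0.338% in control (SD, n = 3 each), with a difference of -1.64 percentage points (exact permutation test, two-sided, p = 0.1). In this design a p of 0.1 is the floor, so no single value compared this way could pass 0.05. Cutting all lists to 1 length by score gave a difference of -1.76 percentage points.

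The number of peaks at the ends did not separate the groups. It was 6199, 5922 and 4881 in knockdown and 3456, 3968 and 5061 in control, so that control replicate 3 exceeded knockdown replicate 3. The ratio of the means was 1.36 at the ends (exact permutation test, two-sided, p = 0.2). It was 1.81 over the autosomes outside the ends, where the groups did not overlap (exact permutation test, two-sided, p = 0.1). The ratio at the ends turned to 0.743 with lists of equal length, where totals are fixed and the ratio restates the difference in share. The cut takes away the lowest-ranked peaks, and more of them from the longer knockdown lists. The lower number after it therefore depends on the ranks before it and adds no separate support. The ends thus shared in the longer knockdown lists less than the rest of the autosomes did.

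Ends were dense in peaks in every library. Knockdown libraries had 79.5, 75.9 and 62.6 peaks per Mb at the ends, against 44.3, 50.9 and 64.9 peaks per Mb in control libraries. Outside the ends the mean densities were 33.4 ± 4.62 peaks per Mb in knockdown and 18.5 ± 3.02 peaks per Mb in control (SD, n = 3 each). The ends were denser than the rest in 6 of 6 libraries, by 2.09 to 2.97 times (exact sign-flip test over libraries, two-sided, p = 0.0313, the smallest possible, and 0.0521 adjusted over the 5 such comparisons). They were also denser than the next 2 Mb inward in 6 of 6 libraries, by 1.26 to 1.59 times (exact sign-flip test, adjusted p = 0.0521). The excess over the rest was smaller in knockdown, at 2.09, 2.27 and 2.18 times, than in control, at 2.71, 2.97 and 2.96 times (exact permutation test, two-sided, p = 0.1). Against the next 2 Mb the mean excess was 1.29 ± 0.0224 times in knockdown and 1.55 ± 0.0424 times in control (SD over 3 libraries per group, two-sided exact permutation test, p = 0.1).

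The difference in share was larger near the end than further inward. In the outermost 0.25 Mb, 0.568 ± 0.025% of peaks lay there in knockdown and 0.808 ± 0.0321% in control, a ratio of 0.702. The ratio of shares was 0.761 from 0.25 to 0.5 Mb, 0.744 from 0.5 to 1 Mb and 0.808 from 1 to 2 Mb, with no overlap between the groups in any of these 4 classes. From 2 to 4 Mb it was 0.925 and from 4 to 10 Mb it was 0.994, and the groups overlapped in both. Beyond 10 Mb it was 1.03. Over the 7 classes no share difference passed after adjustment (exact permutation tests, two-sided, lowest adjusted p = 0.14). In steps of 1 Mb, the ratio was 0.739 in the first, 0.808 in the second and 0.861 in the third Mb, and between 0.947 and 1.12 in each step from 3 to 20 Mb. With lists of equal length the ratios of the 4 classes of the ends were 0.666, 0.628, 0.742 and 0.796, and that from 2 to 4 Mb was 0.883, there without overlap.

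**Figure D1:**
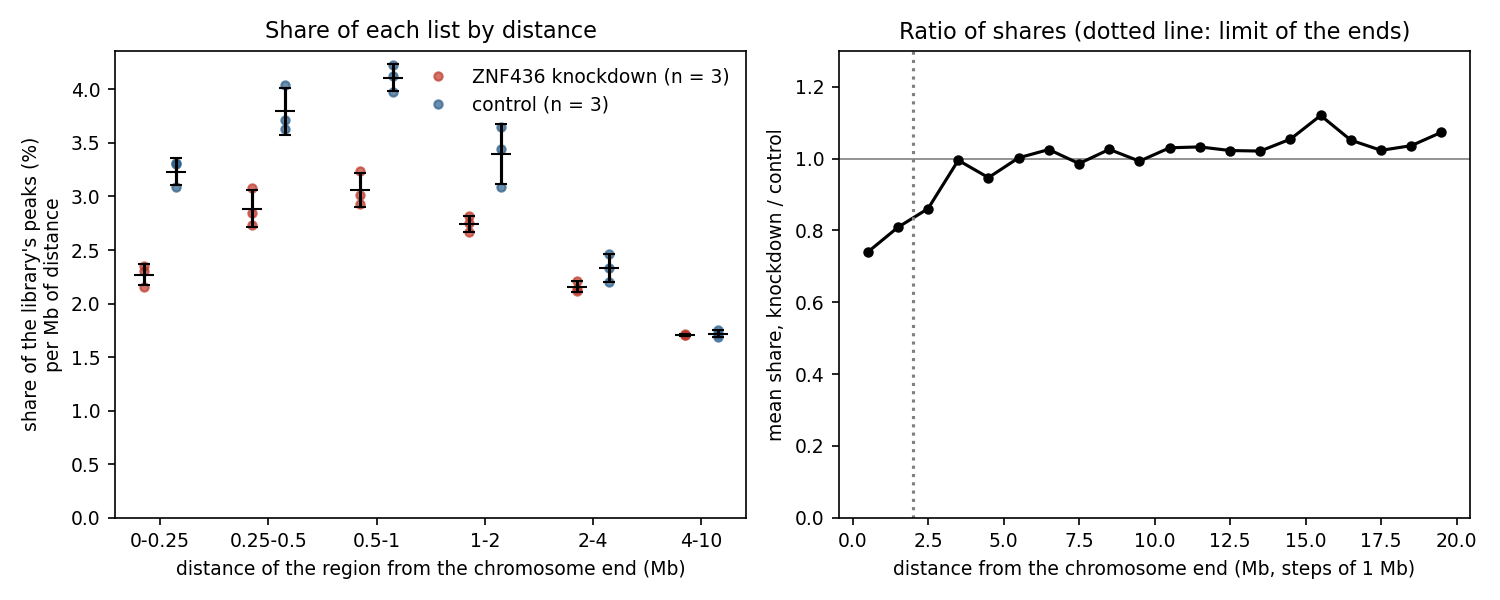
Left, share of each library's peaks per Mb of distance from the chromosome end (y axis, %) in 6 distance classes (x axis, Mb); points are libraries, horizontal marks and bars are means and SD (n = 3 each). Right, ratio of the mean shares, knockdown over control, in steps of 1 Mb; the ratio was 0.739 in the first Mb and between 0.947 and 1.12 in each step beyond 3 Mb.

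The groups differed in the weaker peaks and overlapped in the strongest. Each list was divided into 4 equal parts by score, a value that the authors' peak caller gave and that was ranked only within its list. In the weakest part, 6.60, 7.35 and 6.56% of the knockdown peaks lay at the ends, against 8.80, 9.67 and 10.1% of the control peaks. In the strongest part the values were 5.22, 5.47 and 5.20% in knockdown and 5.57, 5.43 and 5.77% in control. The difference between the parts was not tested. The ratio of mean shares was 0.718, 0.709, 0.772 and 0.948 from the weakest to the strongest part (exact permutation tests, two-sided, p = 0.1, 0.1, 0.1 and 0.2, adjusted over the 4 parts 0.133, 0.133, 0.133 and 0.2). The division was chosen after the main values had been seen. With the stronger 50% of each list, the difference in end share was -0.857 percentage points.

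End peaks ranked low in their lists in both groups, and lower in control. The mean score percentile of end peaks, where 50 is the middle of a list, was 46.9, 46.3 and 47.0 in knockdown and 44.6, 43.7 and 43.5 in control (exact permutation test, two-sided, p = 0.1). The difference of the means was 2.77 percentile points, and 5.92 with lists of equal length. Peaks elsewhere on the autosomes averaged 50.2 in knockdown and 50.5 in control, and end peaks were below them in 6 of 6 libraries (exact sign-flip test, two-sided, adjusted p = 0.0521). From 2 to 4 Mb the mean percentile was 46.6 ± 0.527 in knockdown and 44.7 ± 0.755 in control, also without overlap (SD over 3 libraries each). The low rank and the order of the groups were thus not particular to the ends. The rank followed no straight course toward the end. From 0.5 to 1 Mb the mean percentile was 47.4 ± 0.826 in knockdown and 43.3 ± 0.247 in control, and from 0.25 to 0.5 Mb it was 42.9 ± 0.83 in knockdown and 41.99 ± 0.478 in control, with overlap. In the outermost 0.25 Mb the order of the groups was the other way, with 48.6 ± 0.942 in knockdown and 50.2 ± 0.891 in control (SD over 3 libraries each, exact permutation test, two-sided, adjusted over 7 classes p = 0.117). With lists of equal length this last order turned round, to 53.3 ± 0.858 in knockdown and 50.5 ± 0.204 in control. The peaks of the ends had a median width of 309 ± 5.69 bp in knockdown and 270 ± 13.1 bp in control (SD over 3 libraries per group, two-sided exact permutation test, p = 0.1). From 2 to 4 Mb the gap was similar, with 292 ± 7.02 bp in knockdown and 259 ± 11.2 bp in control. End peaks were wider than those of the rest of the autosomes in 3 of 6 libraries (exact sign-flip test, two-sided, adjusted p = 0.938).

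**Figure D2:**
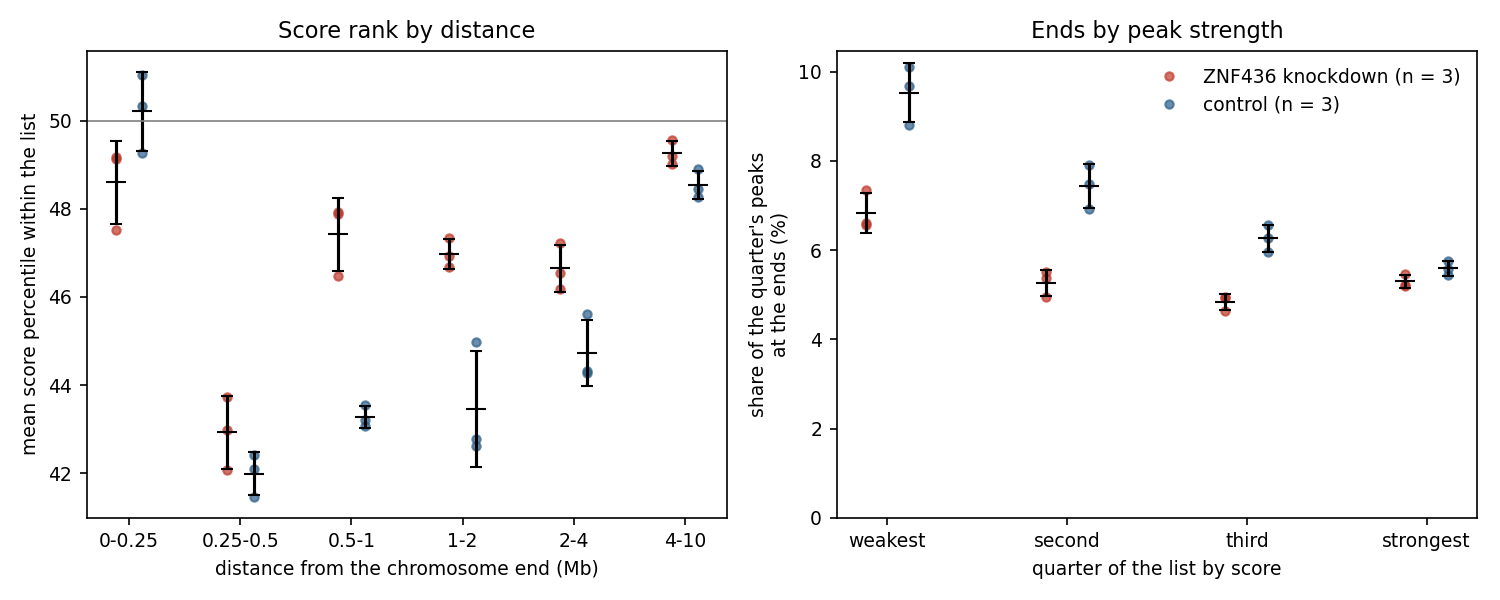
Left, mean score percentile of the peaks within their own list (y axis) by distance from the chromosome end (x axis, Mb); right, share of the peaks of each of 4 score classes that lay at the ends (y axis, %). Points are libraries, marks and bars are means and SD (n = 3 each); in the strongest class the groups overlapped, at 5.30% in knockdown and 5.59% in control on average.

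Sites called in every knockdown library and in no control were sparse at the ends. Of the 10129 end regions, 412 (4.07%) had a peak in each knockdown library and none in control, against 7.72% of all regions of the series. The share was 7.98% on the autosomes outside the ends and 5.74% in the next 2 Mb inward. Within the ends it was 2.43% in the outermost 0.25 Mb, 4.85% from 0.25 to 0.5 Mb, 4.07% from 0.5 to 1 Mb and 4.17% from 1 to 2 Mb. It was 1.00% (56 regions) at the ends with lists of equal length, against 3.04% of all regions. The count was 877 without knockdown replicate 3 and 821 without control replicate 3, when 1 library fewer had to meet the condition.

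Regions with a peak in each control library and none in knockdown were rare, with 19 at the ends (0.188%), against 0.131% of all regions. Of the 19, 9 lay within 0.5 Mb of the end, and 6 in the outermost 0.25 Mb, where they made up 0.635% of 945 regions. The q end of chromosome 4 alone held 5 of them, and 26 of the 39 ends held none. Without that end there were 14. With lists of equal length the balance turned, to 113 regions (2.02%) called only in control, against 1.32% of all regions. The count was 73, 60 and 66 without control replicates 1, 2 and 3, when 1 library fewer had to hold a peak. It was 27, 45 and 27 without knockdown replicates 1, 2 and 3, when 1 library fewer had to lack a peak. A looser condition raises such a count, so these values do not show a dependence on single libraries.

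Regions seen in a single control library were frequent at the ends. They numbered 2056 (20.3%), against 9.85% of all regions and 9.13% of those outside the ends. Control replicates 1, 2 and 3 held 370, 734 and 952 of them. Their peaks were narrow and weak, with a median region width of 171 bp and a mean score percentile of 15.2 ± 1.70 (SD, n = 3), much as outside the ends, where these values were 168 bp and 15.3 ± 1.46. Regions seen in a single knockdown library made up 25.05% of the end regions, against 28.5% of all regions. With lists of equal length, 36.2% of the end regions were called in 1 control library alone, against 21% of all regions, and 5.72% in 1 knockdown library alone, against 10.3% of all regions.

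Sites shared by all control libraries were mostly kept in knockdown. Of 1883 end regions called in all 3 control libraries, 92.6% were found in every knockdown library and 99.0% in at least 1. Outside the ends these shares were 95.6% and 99.3%. In the other direction, of 3312 end regions called in all 3 knockdown libraries, 1744 were found in every control library and 87.6% in at least 1. Outside the ends 80.3% of such regions were found in at least 1 control library. These shares take no account of the longer knockdown lists. Of 3548 end regions called in exactly 1 control library, 42.1% were called in any knockdown library, whereas outside the ends 61.0% were. The 1744 end regions called in all 6 libraries (17.2%, against 18.2% of all regions) had a median width of 957 bp. Their peaks had a mean score percentile of 71.6 ± 3.66 in knockdown and 60.8 ± 3.40 in control (SD, n = 3 each). Such regions outside the ends were much alike, with a median width of 870 bp. There the percentiles were 76.4 ± 2.87 in knockdown and 64.4 ± 3.13 in control (SD, n = 3 each). These ranks come from lists of different lengths, so the gap is neither particular to the ends nor a measure of strength between groups. Of the other classes, 773 end regions (7.63%) were called in 2 knockdown libraries alone, against 11.5% of all regions, and 137 (1.35%) in 2 control libraries alone, against 0.71% of all regions. A further 2451 (24.2%) were called in both groups but not in all 6 libraries, against 23.4% of all regions. Altogether 3722 end regions (36.7%) were called in knockdown and never in control, against 47.7% of all regions, and 2212 (21.8%) in control and never in knockdown, against 10.7% of all regions.

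**Figure D3:**
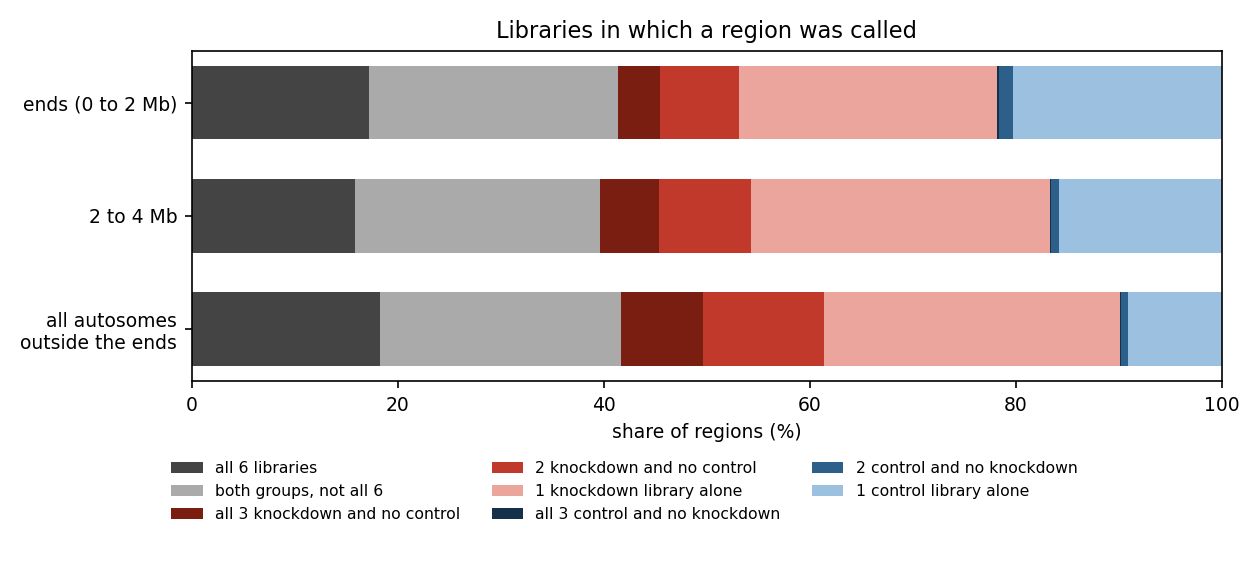
Share of regions (x axis, %) by the libraries in which they were called, for the chromosome ends, the next 2 Mb inward and all autosomes outside the ends. Regions called in 1 control library alone made up 20.3% at the ends and 9.13% outside them, and those called in each knockdown library and never in control 4.07% and 7.98%.

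Ends differed widely among themselves. They held between 30 regions (3p) and 531 regions (9q), with a median of 246. To compare them, all of chromosomes 1 to 22 and X was divided into windows of 2 Mb, with each end as 1 window, and peak numbers per window were tested as shares of the list on the scale log2((peaks + 0.5) / list length) (limma, Benjamini-Hochberg adjustment over all 1454 windows with a mean of at least 2 peaks, threshold 0.05). The median change over all windows was 0.17 on this log2 scale, and relative changes are those left after it was taken off. Adjusted p-values of single ends test the change before that. In knockdown, 22 of 39 ends (56.4%) had a lower share, against 12.9% of all windows, and 2 ends had a higher share, against 32.7% of all windows, while the median relative log2 change was -0.45 over the ends and 0 over all windows by construction. Scaled to the median ratio over windows, 26 ends were lower (19.9% of all windows) and 0 higher (15.5% of all windows), whereas without any scaling 0 were lower (0.619% of all windows) and 26 higher (91.7% of all windows). Relative to the median of all windows, 35 of the 39 ends were below 0. Each of these 3 scalings shifts all windows of a library alike. This count is therefore the same under each by construction and is no check of the scaling. With lists of equal length, 26 ends were lower, against 9.07% of all windows, and 1 was higher, against 24.6% of all windows. Without regard to the test, each knockdown share was below each control share at 22 ends, against 14.8% of all windows, and above each at 2 ends, against 42.7% of all windows.

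Both arms took part, the q ends more often. Of the 22 q ends, 15 were lower and 2 higher, and of the 17 p ends, 7 were lower and 0 higher. The difference between the arms was not tested over windows. As a share of the list, p ends took 2.35 ± 0.0671% in knockdown and 2.93 ± 0.193% in control, and q ends 3.22 ± 0.148% in knockdown and 4.27 ± 0.156% in control (SD, n = 3 each). The p ends made up 42.2 ± 0.432% of end peaks in knockdown and 40.7 ± 0.911% in control, without overlap (SD over 3 libraries each). An exact permutation test, two-sided, gave p = 0.1.

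Dense windows in general had a lower share in knockdown, and most ends were dense. When the windows were ranked by their mean number of peaks and divided into 4 equal classes, the densest class held 29 ends and 334 interior windows. The median relative log2 change was -0.53 for these ends and -0.24 for these interior windows, and 72.4% of the ends against 32.6% of the interior windows were lower. In the next class down, 0 of 7 ends were lower, against 5.65% of 354 interior windows, too few ends to tell these apart. There 2 ends (28.6%) were higher, against 36.2% of the interior windows. The median relative change was -0.06 for these ends and -0.01 for these interior windows. Peak density thus moved with the change, and its part in the result at the ends was not tested further. Within their own chromosomes, the ends took a smaller share of peaks in knockdown on 19 of 22 chromosomes without overlap between the groups, and a larger one on chromosome 15. The same count was not made for other parts of the chromosomes. As shares of the whole list, 14.8% of all windows were lower in knockdown without overlap and 42.7% higher. The values within chromosomes rest on the same peaks as the window test and add no separate support. After adjustment over 22 chromosomes, no value passed (exact permutation tests, two-sided, lowest adjusted p = 0.11).

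**Figure D4:**
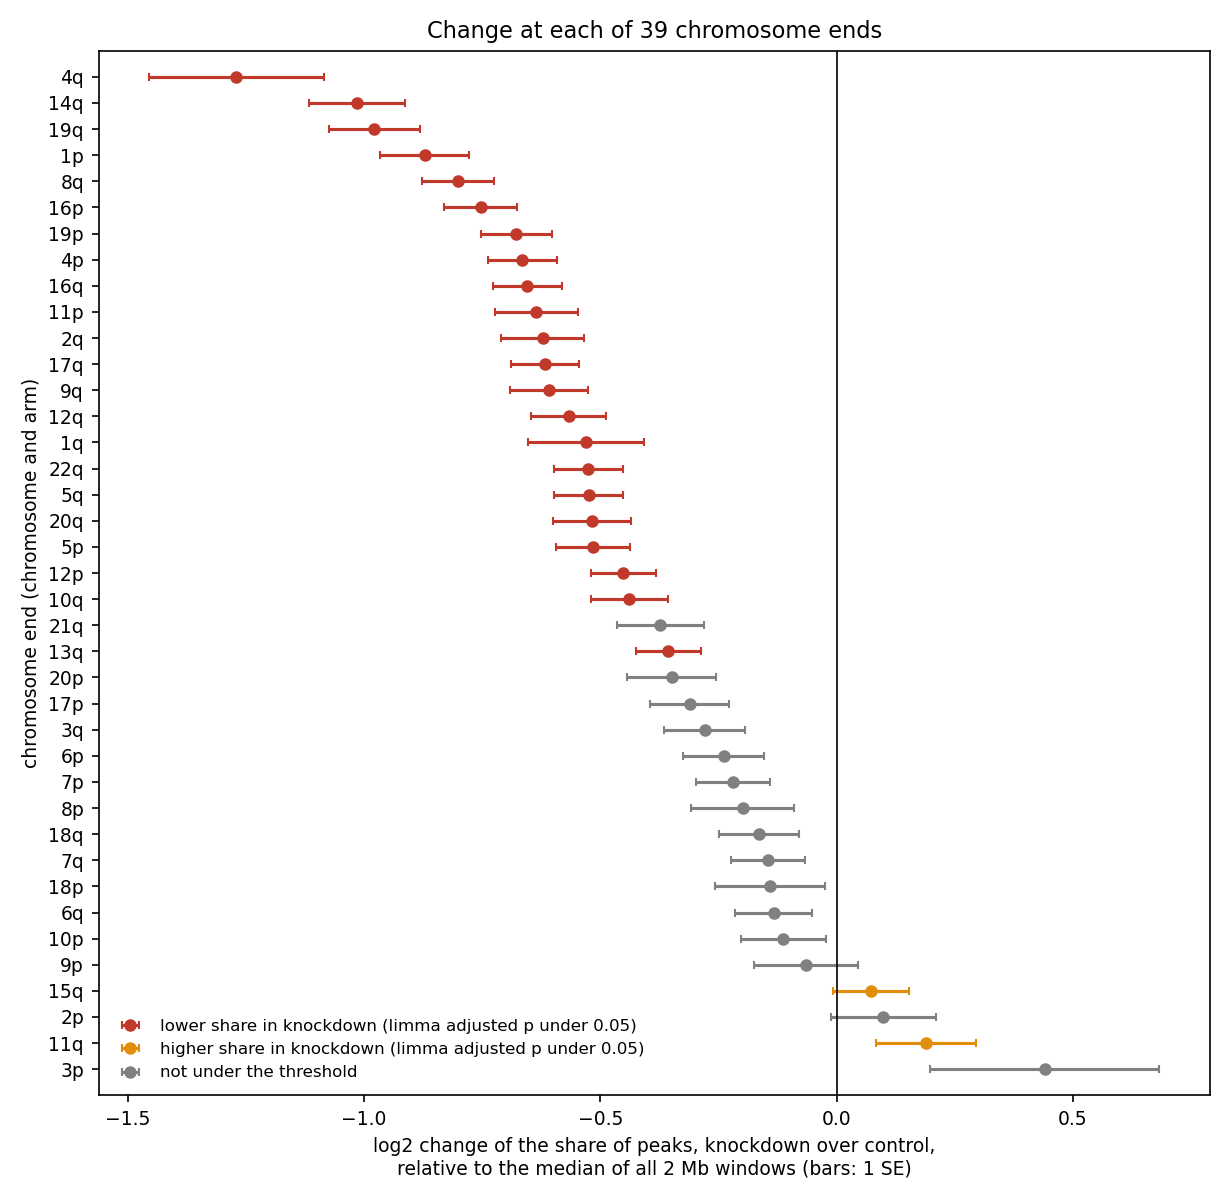
Log2 change of the share of peaks, knockdown over control, relative to the median of all 2 Mb windows (x axis; bars are 1 SE) at each of 39 chromosome ends (y axis). The 22 ends with a lower share in knockdown lay between -1.27 (4q) and -0.36 (13q), and the 2 ends with a higher share were 11q and 15q; without scaling to list length no end was called lower.

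The largest fall was at the q end of chromosome 4. It held 179, 229 and 143 peaks in knockdown, against 221, 232 and 202 in control. Although the knockdown lists were longer, the mean was lower, at 184 ± 43.2 peaks in knockdown and 218 ± 15.2 in control (SD, n = 3 each), with overlap between the groups. As a share of the list, its log2 change was -1.10 (SE 0.185, limma adjusted p = 0.00259), and its relative change of -1.27 lay between -1.46 and -1.16 when 1 library was left out. Without scaling to list length the log2 change of 4q was -0.27 and did not pass (limma adjusted p = 0.172). The relative change was -1.74 with the stronger 50% of each list and -2.63 with lists of equal length, both cuts by score that take away the lowest-ranked peaks. In the GRCh38 gene table of RefSeq, the outermost coding genes of 4q are, from the end inward, DUX4, FRG2 and FRG1. These names give the neighbourhood only and were not assigned to peaks. The q end of chromosome 10, with the related repeats, had 179, 179 and 132 peaks in knockdown and 90, 104 and 141 in control, a log2 change of -0.27 (SE 0.0814, limma adjusted p = 0.0141) and a relative change of -0.44. The difference between these 2 ends was not tested. At the end of 4q, 4 of 318 regions (1.26%, against 7.72% of all regions) were called in all 3 knockdown libraries alone, and 5 (1.57%, against 0.131% of all regions) in all 3 control libraries alone.

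Peaks of 4q were packed into the outer 0.6 Mb. From 0.4 to 0.6 Mb from the end, knockdown libraries had 83, 124 and 72 peaks and control libraries 121, 132 and 105. From there to 2 Mb, knockdown libraries had 31, 20 and 19 peaks and control libraries 10, 10 and 18. The ratio of mean peak numbers was 0.78 in the outermost 0.4 Mb, 0.779 from 0.4 to 0.6 Mb and 1.84 from 0.6 to 2 Mb. The mean score percentile from 0.4 to 0.6 Mb was 20.3 ± 1.72 in knockdown and 30.7 ± 4.14 in control, and in the outermost 0.4 Mb it was 32.5 ± 0.518 in knockdown and 43.6 ± 3.29 in control (SD over 3 libraries each, exact permutation tests, two-sided, p = 0.1 each). These percentiles come from lists of different lengths. Cut to equal length, the lists held 5, 7 and 9 peaks from 0.4 to 0.6 Mb in knockdown and 121, 123 and 51 in control, and the mean percentiles overlapped, at 28.0 ± 4.35 in knockdown and 28.2 ± 6.16 in control (SD over 3 libraries each). In the outermost 0.4 Mb they held 8, 15 and 16 peaks in knockdown and 90, 88 and 58 in control, and the percentiles again overlapped, at 45.9 ± 9.75 in knockdown and 40.7 ± 4.86 in control (SD over 3 libraries each). Both stretches had fewer peaks in knockdown at equal length without overlap, whereas the lower score rank in knockdown was not seen there. A cut by score removes the lowest-ranked peaks, and it removes more from the longer knockdown lists. The counts after it therefore depend on the ranks before it and add no separate support. The ranks after it come from the few knockdown peaks left and cannot decide whether the rank differed. The zones were set after the profile had been seen.

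**Figure D5:**
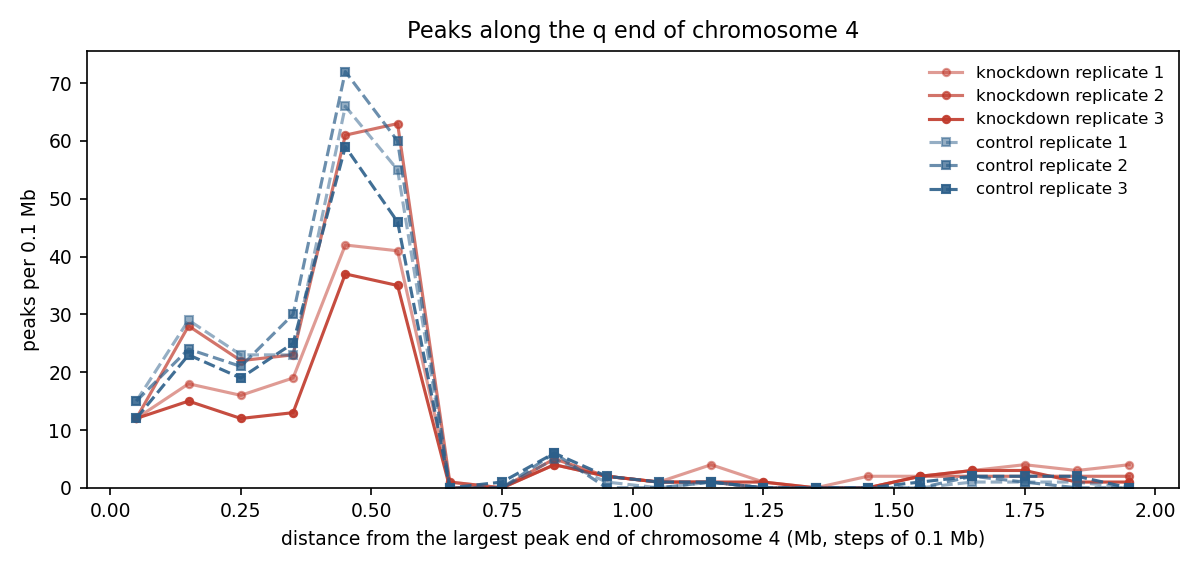
Number of peaks per 0.1 Mb (y axis) along the last 2 Mb of chromosome 4 (x axis, distance from the largest peak end, Mb) in each of the 6 libraries. From 0.4 to 0.6 Mb the knockdown libraries had 83, 124 and 72 peaks and the control libraries 121, 132 and 105.

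The end of 14q followed, with 114, 128 and 113 peaks in knockdown and 99, 126 and 137 in control. Its log2 change was -0.85 (SE 0.101, limma adjusted p = 0.000102) and its relative change -1.01, or -0.44 with the stronger 50% of each list. This was the other end with fewer peaks in knockdown in the mean, at 118 ± 8.39 against 121 ± 19.6 in control (SD, n = 3 each), a difference within the spread. Of its 254 regions, 33.9% were called in a single control library, the highest share of any end. Its outermost coding genes in GRCh38 include TMEM121, CRIP1, CRIP2 and MTA1, a subunit of a chromatin remodelling complex. Genes of other types were left out of this list, so these names need not describe most of the window. They were not assigned to peaks.

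The end of 19q had 94, 94 and 81 peaks in knockdown and 84, 91 and 90 in control, a log2 change of -0.81 (SE 0.0968, limma adjusted p = 9.5e-05) and a relative change of -0.98. With lists of equal length the relative change of 19q was -0.37, with an adjusted p of 0.0276 (limma). Its peaks were strong, with a mean score percentile of 76.4 in knockdown and 70.8 in control, and 45.6% of its 147 regions were called in all 6 libraries, the highest share of any end. Among its outermost coding genes in GRCh38 are TRIM28, the corepressor of KRAB zinc finger proteins, and the zinc finger genes MZF1, ZNF446 and ZNF324. The end of 8q, whose outermost coding genes in GRCh38 include the zinc finger genes ZNF16, ZNF250 and ZNF7, held 252, 227 and 191 peaks in knockdown and 156, 197 and 236 in control. Its log2 change was -0.63 (SE 0.0763, limma adjusted p = 9.5e-05) and its relative change -0.80. The other ends among the 8 with the largest falls were 1p (relative log2 change -0.87), 16p (-0.75), 19p (-0.68) and 4p (-0.66), each under the limma threshold. With the stronger 50% of each list the relative changes were smaller, at -0.48 for 8q, -0.51 for 1p, -0.44 for 19p and -0.28 for 16p, where the adjusted p was 0.0611 (limma).

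The q ends of chromosomes 11 and 15 had a higher share in knockdown, but only slightly above the genome. The end of 11q held 117, 95 and 72 peaks in knockdown and 31, 39 and 55 in control, a log2 change of 0.36 (SE 0.106, limma adjusted p = 0.0135), of which 0.19 was left relative to the median. That of 15q held 96, 90 and 73 peaks in knockdown and 36, 38 and 49 in control, a log2 change of 0.24 (SE 0.0804, limma adjusted p = 0.0242), of which 0.07 was left. Neither passed when windows were scaled to the median ratio, with adjusted p of 0.142 for 11q and 0.407 for 15q (limma), or with lists of equal length, with adjusted p of 0.078 and 0.501 (limma). With the stronger 50% of each list the change of 15q was -0.16 before and -0.27 after the median was taken off. The outermost coding genes in GRCh38 include JAM3, a cell adhesion protein, on 11q and PCSK6, a protease that processes secreted precursors, on 15q. The highest relative change of all ends was 0.44 at 3p, which held only 30 regions and did not pass (limma adjusted p = 0.0512).

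Shares of regions called only in knockdown also varied between ends. Among ends with at least 50 regions they were highest at 15q (9.59%), 3q (9.27%) and 11q (8.72%) and lowest at 14q (1.18%), 4q (1.26%) and 19q (1.36%). The end of 3q was not called in the window test, with a relative log2 change of -0.28. These shares rest on the same peaks as that test and add no separate support. All 39 ends held at least 1 such region, and in 35 ends the share was below the 7.72% of all regions. The mean score percentile was higher in knockdown at 17 ends without overlap, lower at 3 (4q, 15q and 18p), and overlapped at 19. This count was not made for the other windows of 2 Mb, so it has no background to be read against. Further inward the groups also separated, at 46.6 in knockdown and 44.7 in control from 2 to 4 Mb. From 4 to 10 Mb the values were 49.3 in knockdown and 48.5 in control, without overlap. Beyond 10 Mb the order was the other way, at 50.6 in knockdown and 51.1 in control, again without overlap.

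Among the end regions called only in knockdown, the score ranks were highest at chr9:139159124-139159787, 1.95 Mb from the end of 9q. Its score percentiles were 86.7, 89.8 and 82.0 in the 3 knockdown lists. The region chr7:785384-785710 on 7p followed with percentiles of 84.3, 73.3 and 78.7. The next were chr4:1779527-1780153 and chr4:1695043-1695559 on 4p, chr16:89489404-89490058 on 16q and chr15:101813720-101813975 on 15q, with a lowest percentile between 69.7 and 63.1. Most such regions ranked far lower, with a median lowest percentile of 24.7 over the 412, and 26.4 over those outside the ends.

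Among the end regions called only in control, chr17:122808-123095 on 17p stood highest, with percentiles of 87.4, 86.4 and 87.2 in the 3 control lists. It was followed by chr19:381923-382409 on 19p, with a lowest percentile of 55.7, and chr11:1092827-1093625 on 11p, with 51.9. The region chr4:10008-10184 on 4p, whose midpoint lay 10.1 kb from the first base, had percentiles of 47.0, 91.7 and 80.1. The remaining 2 lay on 4q, at chr4:190512695-190513305 and chr4:190813968-190814128, with lowest percentiles of 39.5 and 37.5.

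The end regions named next had the highest lowest percentile of those called in all 6 libraries. A high rank in each list was thus set by the choice. Whether reads with several mapping places raised these ranks was not tested. The region chr18:106060-112551 on 18p had its lowest percentile at 99.99, and chr1:569393-570368 on 1p at 99.96. That stretch of chromosome 1 is known in hg19 as a nuclear copy of mitochondrial DNA. After these came chr3:196625613-196625807 on 3q, chr10:135499261-135502295 on 10q, chr2:739775-741318 on 2p and chr14:105955600-105958050 on 14q, each with a lowest percentile of at least 99.6.

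Near the first base of some p ends, peaks were called in both groups. On 6 of the 17 p ends a peak began within 11 kb of the first base. On 1p and 2p such a peak was called in all 6 libraries, and on 9p and 18p in all but knockdown replicate 2. On 4p it was called in the 3 control libraries and in none of the knockdown libraries, and on 7p in control replicate 3 alone. At the q ends, whose limit was itself set by the outermost peak, the regions nearest to it and called in all 6 libraries were chr22:51234902-51235203, chr15:102521070-102521373 and chr21:48119175-48119642. The first of these had percentiles of 70.8, 73.3 and 54.6 in knockdown and 19.8, 1.70 and 39.5 in control, without overlap. On 15q the order was the other way, with 52.0, 52.6 and 46.9 in knockdown and 56.3, 78.5 and 63.2 in control. On 21q the percentiles were 69.1, 63.1 and 69.7 in knockdown and 71.1, 76.7 and 73.4 in control, again lower in knockdown without overlap. These 3 regions were named for their position, and no test was made for single regions.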

How the data were processed

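Each library has 1 list of peaks with chromosome, start, end, name and a score. The deposited score is a whole number from the authors' peak caller and was turned into a percentile within its list (mean rank for ties, 277 to 308 distinct values per list). Per the deposited files, the peaks are named for MACS and for a single library, so calling was probably done library by library. Bowtie2 2.4.5, bedtools 2.30.0 and hg19 are named in the submitters' processing notes. Not given in the sources used here: version and threshold of the caller, Tn5 shift, duplicate removal and treatment of reads with several mapping places. The depth is unknown.

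Merging, ends, shares and exact tests (3 against 3, two-sided) were computed in Python 3.11.15 with numpy 2.4.6 and pandas 2.3.3. Windows of 2 Mb were tested with limma 3.58.1 in R 4.3.3 (trended and robust variance, pseudocount 0.5, mean of at least 2 peaks). The procedures were checked on simulated data. The members, the tests and the list of regions to name were chosen with earlier results of these data known. Named were regions called in 1 group only (up to 6 per group) and in all 6 libraries (up to 6), by their lowest score percentile, the 3 regions called in all 6 libraries nearest an end, the ends under the limma threshold (up to 8 per direction), and the 3 ends with the highest and lowest share of regions called only in knockdown. Other regions or ends named (3p, 3q in the window test, 9q, 10q, 13q, 18p) were chosen after their values were seen. Alternatives were lists of equal length by score, the stronger 50% of each list, ends of 1 and 4 Mb, other scalings, filters and pseudocounts, other merging, leaving out each library, and a block for the replicate number. No sequence or annotation of hg19 was used here, so the planned gene names and markers were not analysed here. Gene names come from the order of coding genes in the RefSeq table of GRCh38.p14, given for q ends only.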

Additional observations from a re-analysis of the deposited data

How the results depend on the processing

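The lower end share kept its direction under every alternative. It was -1.64 percentage points, -0.857 with the stronger 50% of each list, -0.993 with ends of 1 Mb, and -1.84 to -1.54 with 1 library left out. The ratio of end peaks, 1.36, turned to 0.743 with lists of equal length, which fixes the totals, and was 1.26 to 1.53 with 1 library left out. The difference in score percentile was 2.77, and 5.92 with lists of equal length (2.55 to 3.12 with 1 library left out). The difference in density ratio was -0.70, and -0.362 with the stronger 50% of each list and -0.457 with ends of 4 Mb (-0.782 to -0.656 with 1 library left out). The count of knockdown-only regions was 412, and 56 with lists of equal length, 234 with the stronger 50%, 199 and 846 with ends of 1 and 4 Mb, 1185 when 2 of 3 libraries sufficed, and 496 to 877 with 1 library left out. Those called only in control numbered 19, and 113 with lists of equal length, 156 when 2 of 3 sufficed, and 27 to 73 with 1 library left out. Fewer libraries or another length of end change these counts by construction. Other causes were not tested.

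Against 22 lower and 2 higher ends, there were 0 lower and 26 higher without scaling, 1 higher with lists of equal length (26 lower, of which 20 were among the 22, and the higher end neither 11q nor 15q), 16 lower and 2 higher with the stronger 50% (11.5% and 20.8% of all windows), 0 higher scaled to the median ratio and 0 higher (27 lower) with both (15.5% of all windows lower and 7.75% higher), the last chosen after seeing the data. With windows of 1 Mb, 36 of 78 were lower and 5 higher (9.94% and 20.01% of all windows). With 1 library left out, 19 to 24 were lower and 0 to 4 higher (9.02 to 13.7% and 16.9 to 35.0% of all windows). Without scaling the changes were -0.27 at 4q and -0.017 at 14q, and neither passed. At other single ends they were 0.019 at 19q, 0.13 at 1p, 0.20 at 8q, 0.24 at 16p, 0.32 at 19p and 0.33 at 4p, which follows the longer knockdown lists. That of 15q was -0.16 with the stronger 50% and -0.056 with equal lists and median scaling.

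With the replicate number as a block, 22 ends were lower and 3 higher (12.4% and 32.4% of all windows), the end share differed by -1.64 percentage points and the peak ratio was 1.42. Deviations from the group means correlated between same-numbered libraries by 0.00386, 0.212 and 0.0704, so the numbers are not shown to pair the samples. Knockdown replicate 1 correlated more with control replicate 3. Leaving out 4q gave an end share difference of -1.44 percentage points, and measuring the rest only over bins with a peak a density difference of -0.663, both chosen after seeing the data. Unknown depth limits every count.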
